A study of Mus musculus with 4 samples.

Results

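Cardiac fibroblasts with the highest summed level of Inmt, Igfbp3, Sfrp2, Cntfr and Fst were taken from 4 single-cell libraries of mouse heart, and their other genes were compared with those of the remaining fibroblasts and between maternal diets. A barcode counted as a fibroblast when Col1a1, Col1a2, Dcn and Pdgfra together held at least 10 UMIs (unique molecular identifiers, each standing for 1 captured transcript). It could hold at most 1 UMI of the endothelial genes Pecam1 and Cdh5, at most 3 of the macrophage genes C1qa, C1qb and C1qc, and at most 2 of the pericyte genes Kcnj8 and Vtn. Within each library the top 15% of these fibroblasts by the 5-gene sum over total UMIs were the members, so they were chosen by the measured UMIs of these 5 genes. There were 963 members of 6440 fibroblasts, among 21581 barcodes with at least 1000 UMIs and at most 20% mitochondrial UMIs, of 26765 barcodes in all.

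The hearts came from offspring of dams fed, while pregnant and nursing, a diet rich in resistant starch (high_fibre, 2 libraries) or a diet poor in it (control_diet, 2 libraries). All offspring ate the same chow from 3 weeks of age and were 6 weeks old when the hearts were taken. The labels name no strain, genotype or sex. Nothing in them ties a library to 1 animal or says how many hearts it holds. The p-values therefore cover library-to-library spread only, and that spread can be technical. Cells had been sorted as live, metabolically active and nucleated, which sets what could be sampled.

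Fibroblasts of the heart build and turn over the collagen network and send signals to vessels, nerves and muscle cells. The 5 genes that chose the members belong to separate signalling systems. Inmt encodes an enzyme that transfers methyl groups to indole amines, and Igfbp3 a secreted protein that binds insulin-like growth factors. Sfrp2 is a secreted frizzled-related protein that binds Wnt ligands, Cntfr is the ligand-binding receptor chain for ciliary neurotrophic factor and works with gp130, and Fst (follistatin) binds and blocks activins.

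The members numbered 266 and 331 in high_fibre libraries 1 and 2, and 280 and 86 in control_diet libraries 1 and 2. Their median depths were 10645.5, 10730, 11611.5 and 14749.5 UMIs in that order, against 12263.5, 12942, 13514 and 16471 in the other fibroblasts. Control_diet 2 stood apart: 396 of its 579 fibroblasts (68.4%) and 54 of its 86 members carried a barcode that another library also held. The copy in the other library was nearly always shallow, with a median of 644 UMIs, and of 2036 such copies over all libraries 41 entered the fibroblast gate and 1 was a member. Counts of called genes are therefore given with and without shared barcodes. Leaving out all shared barcodes kept 27 of the 86 members of control_diet 2. Among members with UMIs of Xist or of Y-linked genes but not both, the share with Y-linked UMIs was 65.1%, 45.9%, 33.1% and 52.6%. Cells of both sexes were therefore present in every library, in shares that differed between libraries. A library thus held cells of more than 1 animal, in a number that is not known.

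The label was checked against fibroblast genes outside the rule. Col3a1 was detected in at least 99.6% of the members of every library, Lum in at least 96.4% and Tcf21, a transcription factor of cardiac fibroblasts, in at least 79.3%. Cells carrying transcripts of Schwann cells, the glia of peripheral nerve, were also present: 24 of 963 members held 3 or more UMIs summed over a list of 5 Schwann genes, Sox10 and Gfra3 among them, which the gate does not look at. They numbered 2, 8, 12 and 2 in the 4 libraries. Their median sum of the 4 fibroblast gate genes was 15 UMIs, close to the minimum of 10, against 300 in the other members. Of these 24 cells, 22 had more UMIs of Fst than of any other marker gene, and they held 11.6% of the members' Fst UMIs. Some of the results that they touch are also given without cells holding 3 or more Schwann, mesothelial or globin UMIs. Levels of Fst and shares of cells with Fst are given with them.

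The 5 marker genes chose the members, so their levels are a description with no test. Inmt stood at 399, 374, 129 and 190 counts per 1e6 UMIs (CPM) in the members of high_fibre 1, high_fibre 2, control_diet 1 and control_diet 2. Both high_fibre libraries lay above both control_diet libraries, as they did for Igfbp3; of the 10912 other genes tested by diet in members, 34.1% had diets that did not overlap in either direction. Igfbp3 stood at 537, 443, 330 and 369 CPM, and Sfrp2 at 397, 386, 345 and 402. Cntfr stood at 129, 111, 89.0 and 119, and Fst at 67.0, 105, 66.4 and 168, each with overlapping diets. In the other fibroblasts the means over the 4 libraries were 8.48 for Inmt, 5.38 for Igfbp3, 19.8 for Sfrp2, 15.2 for Cntfr and 5.70 for Fst.

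**Figure D1:**
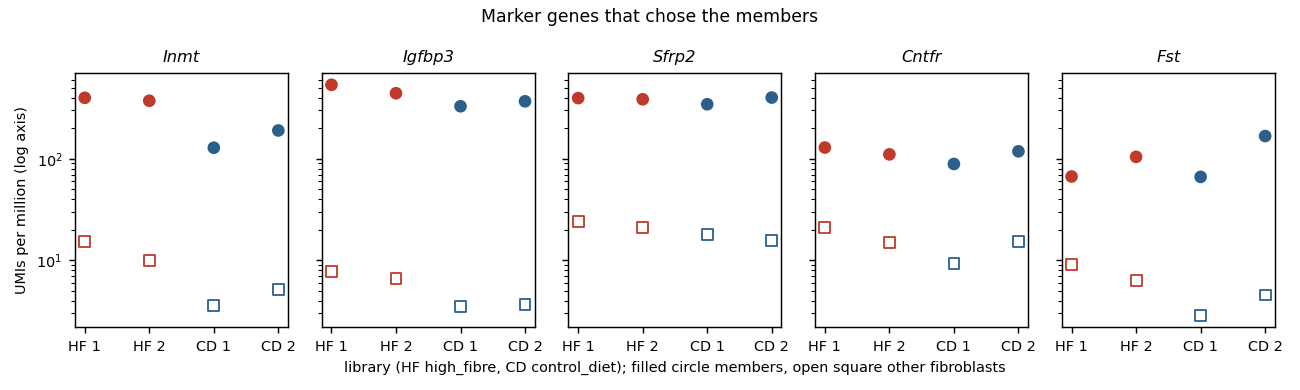
CPM (log axis) of the 5 marker genes in each library, for members (filled circles) and other fibroblasts (open squares), red for high_fibre and blue for control_diet. The gap between circles and squares is set by how the members were chosen, and Inmt of the members ranges from 129 to 399 with both high_fibre libraries above both control_diet libraries.

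By this score the members were the upper end of a continuous range. The lowest member scores were 5.17, 4.33, 2.81 and 3.41 marker UMIs per 10000, and the highest scores outside were 5.15, 4.31, 2.81 and 3.41. Within 10% of these limits lay 55, 56, 45 and 10 fibroblasts. A member held UMIs of a median of 2 of the 5 marker genes, 39.6% of members held at least 3, 2.49% held all 5 and 27.6% held 1 alone. Across fibroblasts, correlations between pairs of marker levels ran from -0.01 to 0.35 over 40 pairs by library. These correlations describe sparse counts within shared libraries.

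A UMI of Inmt was seen in 31.4% to 54.1% of the members of a library, Igfbp3 in 37.5% to 50%, Sfrp2 in 53.2% to 58.1%, Cntfr in 49.3% to 62.8% and Fst in 27.9% to 30.5%. In macrophages, which should lack these genes and had similar median depths of 9727 to 13311.5 UMIs, no share exceeded 0.755%. Endothelial cells also held Igfbp3, with a UMI in 22.5% to 32.5% of cells at median depths of 4749 to 6171 UMIs, so Igfbp3 alone does not mark fibroblasts. After thinning each cell to 2000 UMIs the shares in members were 14.6% to 36.5% for Inmt, 23.3% to 33.8% for Igfbp3, 29.1% to 31.8% for Sfrp2, 15.4% to 22.8% for Cntfr and 9.51% to 17.4% for Fst. This left out 7 members in all. Ranking the fibroblasts by 4 of the marker genes left the fifth higher in the top cells of every library: the ratio of the top 15% to the rest ran from 9.23 to 26.02 for Igfbp3, 3.27 to 10.4 for Inmt, 3.79 to 7.80 for Fst, 3.26 to 5.75 for Cntfr and 2.79 to 5.19 for Sfrp2. The 5 genes had been proposed together from these data, so these ratios are a description.

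Genes that the rule did not use were then compared between the members and the other fibroblasts of the same library. The marker genes had been proposed with these cells in view, so this comparison shows which genes go with them and is not independent support for the grouping. Counts were summed per library and cell group and tested with edgeR's quasi-likelihood test with library as a block. Of 11675 genes tested, 1468 were higher in members (12.6%) and 1240 were lower (10.6%) at an adjusted p of 0.05. All 4 libraries showed the same sign for 1346 of the higher and 1171 of the lower genes, and 319 and 144 of them differed by more than 1 on the log2 scale. Without shared barcodes 1222 were higher and 995 lower, and without cells holding 3 or more Schwann, mesothelial or globin UMIs 1549 were higher and 1324 lower.

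Named here are called genes with a mean of at least 20 CPM in the higher group and 1 sign in all 4 libraries. The 12 of them with the largest rise had log2 folds of 2.46 to 4.05. Levels here and in the diet comparisons are CPM after TMM scaling. Cpz, a secreted carboxypeptidase with a Wnt-binding domain (GRCm38, chromosome 5, 35502218 to 35525698), stood at 31.3, 25.0, 25.2 and 22.3 CPM in members and at 1.01, 2.02, 1.57 and 1.71 in the other fibroblasts. The groups were far apart in every library, with a log2 fold of 4.05 (SE 0.21, adjusted p = 2.22e-14 by edgeR). Aoc3, a cell-surface amine oxidase, stood at 40.8, 27.4, 26.1 and 41.3 CPM against 4.11, 3.50, 1.98 and 2.93. Its log2 fold was 3.39 (SE 0.16, adjusted p = 1.49e-15 by edgeR). Vegfd, a growth factor of lymphatic vessels, stood at 75.0, 88.6, 49.2 and 90.8 CPM against 10.7, 9.47, 10.2 and 8.67, a log2 fold of 2.88 (adjusted p = 0.000285 by edgeR).

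The others of these 12 were Fndc5 (log2 fold 3.86), Cnmd (3.75), Cxcl5 (2.87), Gdf10 (2.82), C4b (2.74), Mmp3 (2.73), Alkal2 (2.57), Wisp2 (2.55) and 1500015O10Rik (2.46). Fndc5 is the precursor of irisin, Cnmd (chondromodulin) an inhibitor of vessel growth, Cxcl5 a chemokine that attracts neutrophils and Gdf10 a BMP-family ligand. C4b is a complement component, Mmp3 a matrix protease, Alkal2 a ligand of the receptor ALK and Wisp2 a matricellular protein of the CCN family. The calls of Mmp3, Wisp2 and 1500015O10Rik rested on the full set of libraries. Mmp3 missed the threshold without any one library (edgeR adjusted p 0.0549 to 0.0983). Wisp2 missed it without high_fibre 1, high_fibre 2 or control_diet 1 (highest adjusted p 0.0748), and 1500015O10Rik without high_fibre 1 or control_diet 2 (highest 0.0876).

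Stmn4, a regulator of microtubules, stood at 1.09, 2.36, 1.82 and 1.65 CPM in members and 25.9, 28.8, 33.3 and 30.9 in the other fibroblasts, a log2 fold of -4.05 (SE 0.19, adjusted p = 1.01e-15 by edgeR). Ret, the receptor for GDNF-family ligands, stood at 21.5, 20.9, 28.8 and 28.1 CPM against 74.0, 63.8, 82.1 and 84.4, a log2 fold of -1.61. Has2, which makes hyaluronan, fell by 2.10 on the log2 scale and Thy1, a surface glycoprotein of many fibroblasts, by 1.52. The rest were Cst6 (-2.23), Efhd1 (-1.76), Tmem100 (-1.74), Lrrn4cl (-1.71), Nov (-1.65), Dpp4 (-1.59), Scml4 (-1.52) and Cadm3 (-1.52). Cst6 missed the threshold without high_fibre 1, high_fibre 2 or control_diet 2 (highest edgeR adjusted p 0.122), and Dpp4 without high_fibre 2 (0.0513).

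**Figure D2:**
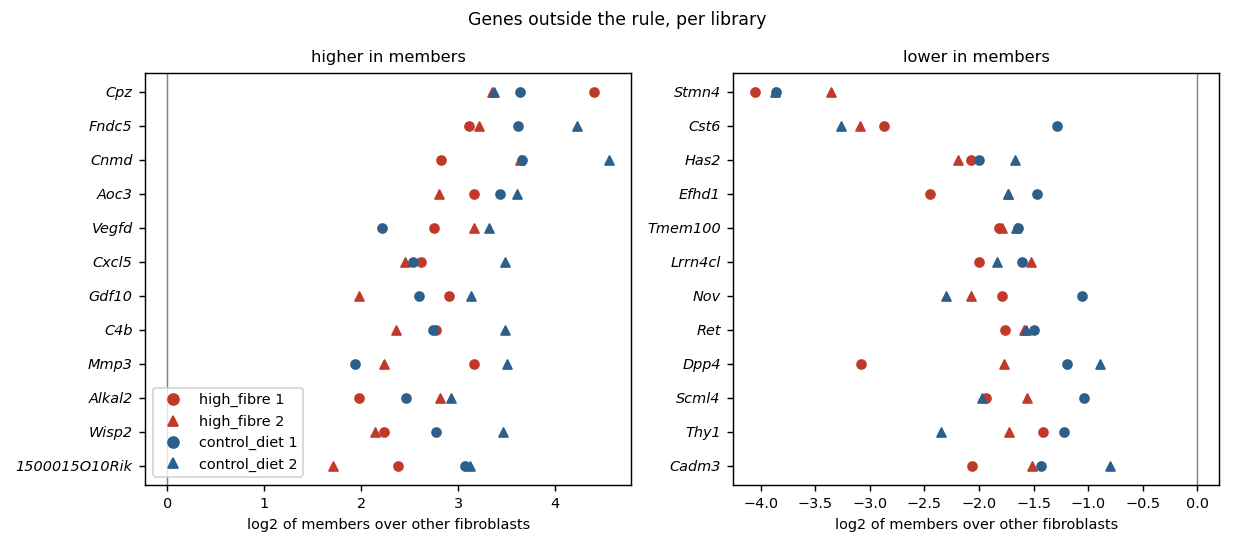
Log2 ratio of members over other fibroblasts in each of the 4 libraries for the 12 genes with the largest rise (left) and the 12 with the largest fall (right); circles are libraries 1, triangles libraries 2, red high_fibre, blue control_diet. All 4 libraries lie on the same side of 0 for each of the 24 genes, which was a condition for naming them.

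The pathways of the marker genes were described from lists of their other members, each count read against 12.6% higher and 10.6% lower over all genes and a median log2 fold of 0.01. Of 35 Wnt genes tested, 14 were higher and 3 lower, with a median of 0.38. Among 9 ligands 3 were higher and 2 lower: Wnt6 rose from 2.71 to 9.82 CPM (log2 fold 1.83) and Wnt5a from 26.8 to 40.7 (0.58), while Wnt10b fell by 2.98 on the log2 scale to 1.03 CPM. Of 13 receptors 5 were higher and none lower at the edgeR threshold, among them Fzd4 (log2 fold 0.71), Fzd7 (0.58), Lrp5 (0.45) and Fzd2 (0.38). Of 8 inhibitors 3 were higher and none lower. Sfrp1, a relative of the marker Sfrp2, stood at 375, 425, 347 and 430 CPM in members and 190, 183, 155 and 178 in the others, a log2 fold of 1.15 (SE 0.04, adjusted p = 3.33e-17 by edgeR). Dkk3 (0.67) and Wif1 (1.28) were the other two. Wif1 ranged widely in members, at 123, 58.6, 38.6 and 8.26 CPM. Of 5 target genes, Wisp2, Nkd1 (log2 fold 1.78) and Axin2 were higher and Ccnd1, a cyclin, was lower (-0.78).

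For activin and BMP signalling, the system that follistatin acts on, 14 of 43 tested genes were higher and 11 lower, with a median of 0.04. Of 13 tested genes listed as ligands, Gdf10 was the 1 that rose, and 5 fell. Among these was Tgfb1, at 20.4, 22.4, 25.5 and 25.6 CPM in members and 53.6, 46.6, 58.0 and 56.8 in the others (log2 fold -1.19). Inhba, the activin A subunit, fell by 1.12 on the log2 scale, Inhbb by 0.67, Bmp2 by 0.54 and Bmp1 by 0.52. Bmp1 was counted in this list but is a procollagen protease and not a ligand. Smad6 and Smad7, inhibitors inside the cell, rose by 2.20 (from 5.28 to 25.0 CPM) and 0.95, and the decoy receptor Bambi rose from 24.02 to 52.1 CPM. Nbl1, a secreted BMP antagonist, fell by 1.28 and Chrd (chordin) by 0.85, so 6 of 13 antagonists were higher and 5 lower. Of 6 targets, Id1 (log2 fold 1.00), Id2 (1.39), Id3 (0.87) and Ctgf (0.73) were higher and none was lower at the edgeR threshold. Id1 stood at 110, 90.4, 68.6 and 51.2 CPM in members and 60.4, 42.0, 33.2 and 26.5 in the others. The Id2 call was lost without high_fibre 1, high_fibre 2 or control_diet 1 (highest adjusted p 0.133 by edgeR).

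Of 13 IGF pathway genes tested, 9 were higher and 2 lower, with a median of 0.32. Pappa, a protease that frees IGFs by cutting Igfbp4, stood at 21.1, 20.3, 20.9 and 30.5 CPM in members and 6.29, 5.80, 3.14 and 4.40 in the others, a log2 fold of 2.19 (SE 0.18, adjusted p = 3.17e-09 by edgeR). Stc2, an inhibitor of that protease, rose by 0.87, Igfbp4 by 0.65, Igf1 by 0.40 and Igfbp7 by 0.32. Igfbp6, which binds IGF-II, fell from 644 to 302 CPM, and Igf2r, which clears IGF-II, from 124 to 88.6 (-0.46). All 4 libraries showed these directions.

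Of 18 genes of the CNTF receptor and gp130 pathway, 7 were higher and 2 lower, and 4 of its 5 receptors were higher. Il11ra1, the interleukin-11 receptor chain, stood at 441, 441, 373 and 448 CPM in members and 197, 194, 163 and 169 in the others, a log2 fold of 1.23 (SE 0.04, adjusted p = 1.26e-18 by edgeR). Lifr, which pairs with gp130 in the CNTF receptor complex, rose by 0.95, Osmr by 0.73 and Il6st, gp130 itself, by 0.19. The feedback inhibitor Socs1 rose by 0.66, and Socs3 stood at 208 against 132 CPM without passing the test. Of 5 ligands 2 were lower, among them Lif (log2 fold -1.35), whose call was lost without high_fibre 2 or control_diet 1 (highest edgeR adjusted p 0.120). In the list of methyl transfer and amine enzymes 7 of 18 were higher and none lower at the edgeR threshold, led by Aoc3 and by Maob, a mitochondrial amine oxidase (log2 fold 1.48). Nnmt, which methylates nicotinamide, stood at 120 against 129 CPM and did not pass.

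Lists of other fibroblast states were compared next. Of 14 adventitial genes 9 were lower and 1 higher, with a median log2 fold of -0.89, including Cd248 (-1.47), Dpp4, Efhd1 and Ly6c1 (-1.44). Of 11 interstitial genes 8 were higher and 2 lower, with a median of 0.51. The 2 lower genes, Gsta3 (log2 fold -0.48) and Smoc2 (-0.14), are defining genes of that state. Fmo2, a flavin monooxygenase, stood at 596, 447, 234 and 429 CPM in members and 169, 130, 64.0 and 106 in the others, a log2 fold of 1.86 (SE 0.04, adjusted p = 2.74e-22 by edgeR). Of the members, 17.8% to 24.4% in a library were also in the top 15% of fibroblasts by Gsta3, Hsd11b1, Smoc2, Gpx3 and Fmo2, 10.6% to 15% in that by Cilp, Postn, Meox1, Comp and Thbs4, and 4.64% to 6.02% in that by Pi16, Cd248, Dpp4, Sema3c and Anxa3. The groups compared have equal sizes in each library, so each share holds for both. Unrelated groups of this size would share 15% on average.

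Matrix genes moved both ways. In the list of small proteoglycans and elastic fibre proteins 14 of 24 were higher and 9 lower: Fbln1 rose from 748 to 1675 CPM and Fbn2 by 2.05 on the log2 scale, while Emilin2 fell by 1.09. Timp3, an inhibitor of matrix proteases, rose by 1.09 from 603 to 1289 CPM. Of 17 basement membrane genes 4 were higher and 11 lower, among the latter Col15a1 (log2 fold -0.50). Of 13 collagens 5 were higher and 4 lower, with Col6a6 at 1.03 and Col3a1 at 0.54.

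Of 30 vascular growth and guidance genes 16 were higher and 5 lower, including Angpt2 (log2 fold 2.95) and Pdgfd (1.84) beside Vegfd. Of 18 chemokines and cytokines tested 5 were higher and 1 lower, with Cxcl12, which guides CXCR4-bearing cells, at 234 against 110 CPM (log2 fold 1.08) and Ccl19 at 35.1 against 8.87 (1.94). Of 13 complement genes 6 were higher and 1 lower, and C3 stood at 703 against 344 CPM, a call lost without high_fibre 1, high_fibre 2 or control_diet 1 (highest edgeR adjusted p 0.161). Apoe, the lipid carrier, stood at 8839, 7842, 7417 and 8292 CPM in members and 2387, 1718, 1185 and 1373 in the others, a log2 fold of 2.33 (SE 0.18, adjusted p = 0.00468 by edgeR). Of 20 lipid genes 10 were higher and 1 lower.

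In the retinoic acid list 8 of 12 genes were higher and 1 lower. Cyp26a1, which degrades retinoic acid, rose from 0.354 to 5.68 CPM, Rbp4, a carrier of retinol, by 1.22 on the log2 scale and Dhrs3 by 0.83. Of 22 immediate early genes 14 were higher and 2 lower, with Nr4a1 at a log2 fold of 0.83. These genes respond to tissue dissociation, and the part of handling in them was not tested. Of 23 cholesterol synthesis genes 7 were lower and 1 higher, with Idi1 at -0.68 and Fdps at -0.59.

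Marker lists of other cell types were read beside these groups. The Schwann list summed to 54.0 to 194 CPM in members against 16.3 to 36.9 in the other fibroblasts, and 2 of its 4 tested genes were called, Gfra3 (log2 fold 2.53) and Sox10 (2.35). The Sox10 call was lost without control_diet 2 (edgeR adjusted p 0.0887). In each library 100% of the Gfra3 UMIs and at least 94.1% of the Sox10 UMIs of members lay in the 24 cells described above. The endothelial list summed to 109 to 152 in members against 166 to 219, and the macrophage list to 48.4 to 130 against 49.4 to 125. Other lists were higher in members: the endocardial list summed to 69.4 to 119 CPM against 29.5 to 51.9 and the cardiomyocyte list to 17.9 to 43.4 against 13.1 to 20.5, each higher in all 4 libraries. Of 3 endocardial genes tested 1 was called, Cytl1, while Plvap and Npr3 were higher in some libraries and lower in others. Cells with 3 or more cardiomyocyte UMIs were 3.38%, 0.906%, 2.5% and 1.16% of members against 1.12%, 1.54%, 2.51% and 2.23% of the others, by library. In high_fibre 2 the cardiomyocyte sums were 18.0 against 17.4. The part of such transcripts in the results was not tested. Among the 169 called genes of the lists and of the 24 largest changes, 6 missed the threshold and 2 changed sign when cells with 3 or more Schwann, mesothelial or globin UMIs were left out.

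The members were not uniform, and the gene that gave a cell most of its marker UMIs went with different companions. Inmt led 276 members, Igfbp3 228, Sfrp2 258, Cntfr 74 and Fst 66, and 61 had a tie. Groups by leading gene were formed after the data had been seen, so levels are described with no test, and were read where a group stood above or below both of the other two in all 4 libraries. Over 7955 genes, that held for 240 genes above (3.02%) and 209 below (2.63%) in Inmt-led members, 260 (3.27%) and 343 (4.31%) in Igfbp3-led members, and 317 (3.98%) and 265 (3.33%) in Sfrp2-led members.

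Inmt-led members had the highest Alkal2, at a mean of 68.7 CPM over the 4 libraries against 19.01 in Igfbp3-led and 17.6 in Sfrp2-led members, and the highest Angptl1, at 104 against 36.8 and 38.3. They had the lowest Id1, at 24.1 against 136 and 103, and the lowest Smad6, at 9.62 against 49.6 and 30.6. Igfbp3-led members had the highest Angpt2, at 28.0 against 1.37 and 2.76, and the highest Fndc5, at 56.2 against 23.0 and 4.25. Apoe averaged 13135 CPM in Igfbp3-led members against 6306 and 5682. Pi16, an adventitial marker, averaged 276 in Igfbp3-led members against 1177 in Inmt-led and 1235 in Sfrp2-led members.

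Sfrp2-led members had the highest Postn and Wisp2. Postn (periostin), a matrix protein of activated fibroblasts, averaged 423 CPM there against 24.6 in Inmt-led and 95.1 in Igfbp3-led members. Wisp2 averaged 570 against 171 and 142. Ccl11, the chemokine eotaxin, was lowest there at 12.01 against 123 and 129. Sfrp2-led members were also deeper, with median UMIs of 12785 to 18039 by library against 10214.5 to 13611 in Inmt-led members.

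**Figure D3:**
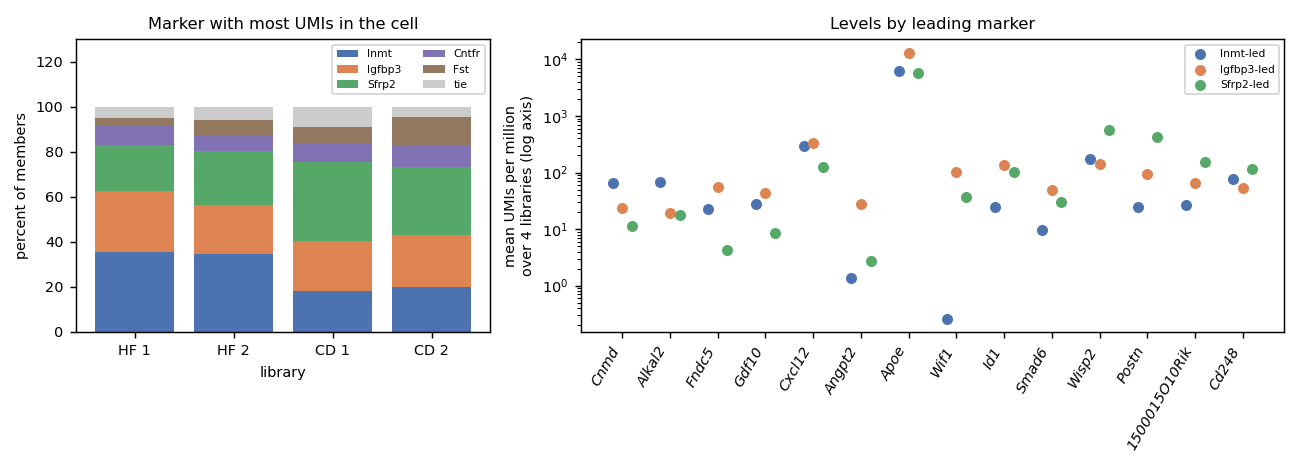
Left, percent of members by the marker gene with the most UMIs in the cell, per library; right, mean CPM (log axis) over the 4 libraries of 14 genes in Inmt-, Igfbp3- and Sfrp2-led members. Inmt leads 35.3% and 34.4% of members in the high_fibre libraries and 18.2% and 19.8% in the control_diet libraries, and Postn and Wisp2 are highest in Sfrp2-led members.

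The mix of leading genes differed between the diets. Inmt led 35.3% and 34.4% of the members in the high_fibre libraries and 18.2% and 19.8% in the control_diet libraries. Sfrp2 led 20.3% and 23.9% against 35.4% and 30.2%, and Fst 3.76% and 7.25% against 7.5% and 12.8%. The diets did not overlap for these 3 leading genes and overlapped for Igfbp3 and Cntfr. Fst led 10, 24, 21 and 11 members of high_fibre 1 and 2 and control_diet 1 and 2. Of these, 2, 8, 10 and 2 held 3 or more Schwann UMIs, and without such cells the diets overlapped for Fst. Over the genes tested by diet in members, 34.1% had diets that did not overlap. With 1 score limit for all libraries, 3.93 marker UMIs per 10000, 18.9% and 16.2% of high_fibre fibroblasts and 10.5% and 13.3% of control_diet fibroblasts lay above it. In all fibroblasts together, where the gate did not use these 5 genes, Inmt stood at 67.6 and 56.9 CPM in high_fibre and 20.2 and 30.1 in control_diet. The log2 difference was 1.35 for Inmt, 0.52 for Igfbp3, 0.40 for Cntfr, 0.16 for Sfrp2 and 0.02 for Fst, given as a description with no test because these genes chose the members.

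Within the members, few genes differed by maternal diet. Of 10912 genes tested with edgeR, 8 were higher in high_fibre (0.0733%) and 2 lower (0.0183%), and 585 had an unadjusted p under 0.05. All 10 calls were lost without high_fibre 1, without shared barcodes, and in cells with Xist and no Y-linked UMIs, where Serpina3c was too low to be tested. The differences kept their direction in these settings. Without shared barcodes Sult5a1 was at 1.34, Serpina3n at 1.04, Hspb1 at 0.80 and Manf at -0.56. Leaving out only the shallow copies of shared barcodes gave 12 calls by edgeR, all 10 genes among them. In simulated data for this comparison over 10860 genes, 50% of genes changed by a factor of 2 and 96% of those changed by a factor of 3 were recovered, and 6% at a factor of 1.5, with 5 false calls.

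The called genes included 2 heat shock proteins. Hspb1, a small heat shock protein (chromosome 5, 135887919 to 135889563), stood at 1590 and 1183 CPM in high_fibre and 691 and 738 in control_diet, a log2 difference of 0.96 (SE 0.13, edgeR adjusted p = 0.00111). Dnajb1, a partner of Hsp70 (chromosome 8, 83608193 to 83612653), stood at 337 and 288 against 179 and 198, a difference of 0.74 (SE 0.13, edgeR adjusted p = 0.00301). In the other fibroblasts both pointed the same way, at 1.07 and 0.92, without passing the test there. Of 18 heat shock genes 15 lay above 0 in members, with a median of 0.22 against -0.00 over all genes. Of 22 immediate early genes, which respond to tissue dissociation, 21 lay above 0 in members, with a median of 0.21. The part of handling in these differences was not tested.

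Serpina3n, a secreted serine protease inhibitor (chromosome 12, 104406729 to 104414329), stood at 85.5 and 64.9 CPM in high_fibre and 38.4 and 31.6 in control_diet, a log2 difference of 1.06 (SE 0.18, edgeR adjusted p = 0.00301). Sult5a1, a sulfotransferase (chromosome 8, 123140192 to 123158315), stood at 33.5 and 40.5 against 15.8 and 14.6, a difference of 1.27 (SE 0.22, edgeR adjusted p = 0.00301). By the mean over libraries both genes were highest in Inmt-led members, where Sult5a1 averaged 41.7 CPM against 16.0 in Igfbp3-led and 22.2 in Sfrp2-led members, and Inmt-led members were more frequent in high_fibre. Per library and with no TMM scaling, Sult5a1 of Inmt-led members stood at 57.8 and 63.5 against 29.0 and 8.41. The last rested on 2 UMIs and was lower than in the Igfbp3- and Sfrp2-led members of control_diet 2. In Igfbp3-led members Sult5a1 stood at 7.78 and 19.9 against 7.04 and 24.9, which overlapped. In Inmt-led members Serpina3n stood at 117 and 86.1 against 47.05 and 58.9.

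Serpina3c, Rasl11b, Glul and H2-Aa were the other higher genes. Glul, glutamine synthetase (chromosome 1, 153899944 to 153909723), stood at 210 and 183 CPM against 127 and 122 (log2 difference 0.65, edgeR adjusted p = 0.0219). Rasl11b, a Ras-like protein (chromosome 5, 74195286 to 74199481), stood at 64.5 and 58.9 against 33.3 and 37.3 (0.83, edgeR adjusted p = 0.0376). Serpina3c (chromosome 12, 104146382 to 104153870) stood at 13.2 and 12.4 against 3.27 and 4.05 (1.85, edgeR adjusted p = 0.0495), and rested on 11 and 5 UMIs in control_diet. It has close relatives in the same gene cluster, Serpina3n among them, so reads shared between copies could blur it. H2-Aa, an MHC class II chain (chromosome 17, 34282744 to 34287823), stood at 17.5 and 12.1 against 3.86 and 4.05 (1.89, edgeR adjusted p = 0.0219). A single cell of high_fibre 1 held 16 of its 49 UMIs. With cells holding 3 or more Schwann, mesothelial or globin UMIs left out and members chosen again, the difference was 0.31. That choice added cells in control_diet alone, where 268 of 276 and 83 of 85 had been members before. In each library 0% of the H2-Aa UMIs of members lay in cells with 3 or more Schwann UMIs. Which cells changed the difference was not tested. Macrophage transcripts moved with it: their list summed to 74.8 and 130 CPM in high_fibre members and 53.7 and 48.4 in control_diet members, and their part in the H2-Aa result was not tested.

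Manf and Pdlim4 were lower in high_fibre. Manf, a chaperone of the endoplasmic reticulum (chromosome 9, 106838312 to 106891979), stood at 225 and 227 CPM against 357 and 377, a log2 difference of -0.70 (SE 0.12, edgeR adjusted p = 0.00301). The other fibroblasts showed the same, at 245 and 259 against 435 and 408 (-0.74, edgeR adjusted p = 0.0211). Of 18 chaperones of this compartment 17 lay below 0 in members, with a median of -0.29, and all 18 lay below 0 in the other fibroblasts. Pdlim4 (chromosome 11, 54054928 to 54069014), an adaptor of the actin cytoskeleton, stood at 4.28 and 8.91 against 21.1 and 33.2 (-1.90, edgeR adjusted p = 0.00801). In each library at least 77.4% of its UMIs in members lay in the cells with 3 or more Schwann UMIs described above. After leaving out cells with 3 or more Schwann, mesothelial or globin UMIs, Pdlim4 was too low to be tested.

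In the other fibroblasts 5 of 13458 genes were higher in high_fibre (0.0372%) and 3 lower (0.0223%), and none without shared barcodes by edgeR, where 397 had an unadjusted p under 0.05. C4b, which also set members apart, stood there at 19.005 and 18.2 against 6.66 and 6.24 CPM (log2 difference 1.52, edgeR adjusted p = 0.00376). In members C4b stood at 127 and 91.7 against 45.5 and 72.1 and did not pass. Wisp2 stood at 59.2 and 65.7 against 35.6 and 29.97 in the other fibroblasts (0.92, edgeR adjusted p = 0.0231), and in members at 268 and 279 against 235 and 322, where the diets overlapped.

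A difference between the diet effects was tested with limma on the within-library log2 difference of members from other fibroblasts. Of 11675 genes 1 was called (0.00857%), Postn (chromosome 3, 54361109 to 54391037). Members minus other fibroblasts was -0.86 and -0.82 in high_fibre and -0.20 and -0.16 in control_diet, a difference of -0.66 (SE 0.08, limma adjusted p = 0.0137). In members Postn stood at 190 and 102 CPM against 296 and 254, and in the other fibroblasts at 362 and 187 against 355 and 297. Few cells carried it: 5 cells held 82.5% of the 314 Postn UMIs of control_diet 2 members, and 1 cell held 154 of the 534 of high_fibre 1. The share of Sfrp2-led members, which carry most Postn, moved the same way as given above, and its part in this result was not tested. In high_fibre 2 Postn was also lowest among Sfrp2-led members, at 193 against 456 in high_fibre 1, 468 in control_diet 1 and 518 in control_diet 2. The Postn call was lost without high_fibre 1 or high_fibre 2. It was also lost without shared barcodes (limma adjusted p 0.894) and without cells holding 3 or more Schwann, mesothelial or globin UMIs (0.103). With only the shallow copies of shared barcodes left out, the call stayed (limma adjusted p 0.0201).

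**Figure D4:**
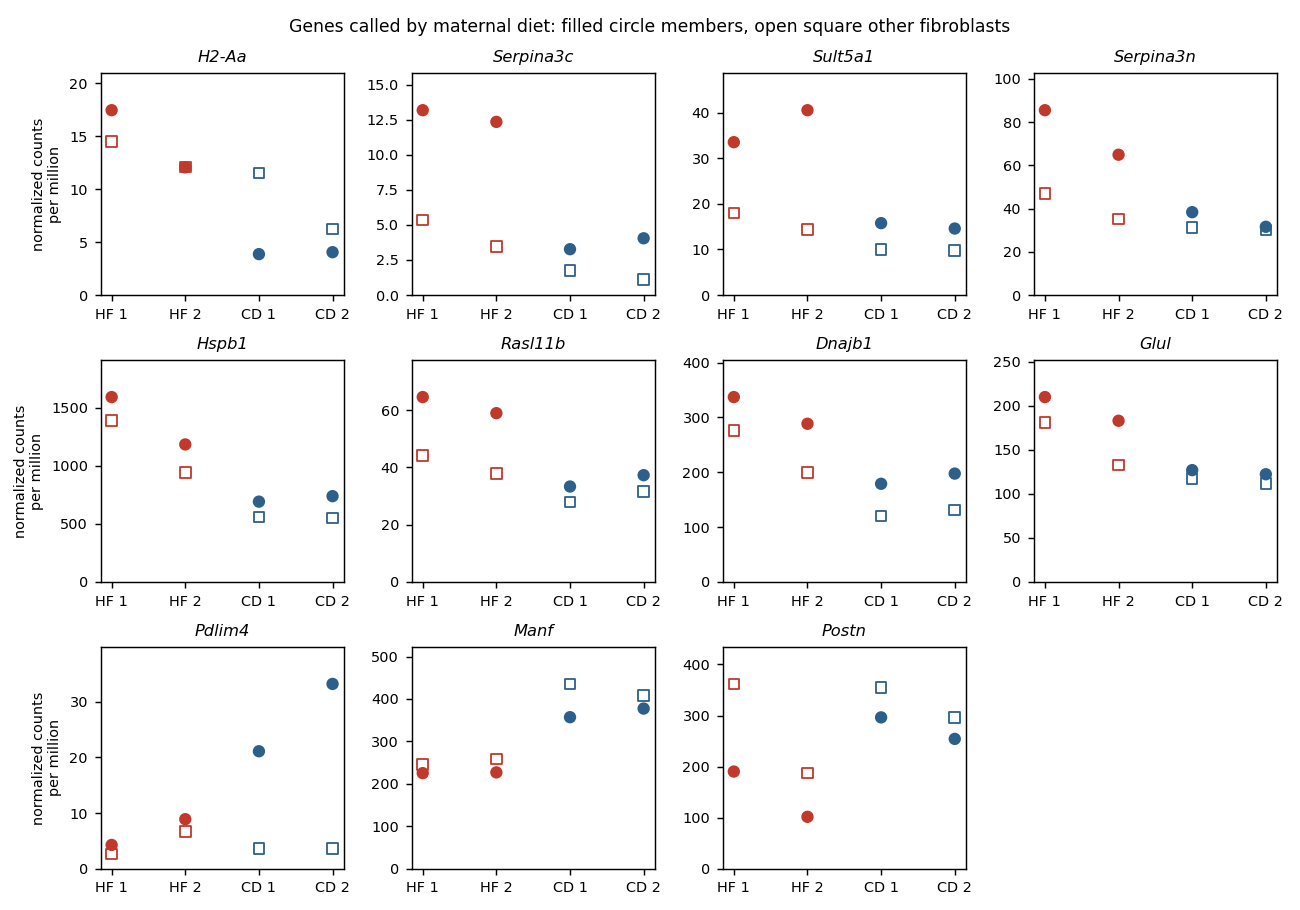
TMM-scaled CPM per library of the 10 genes called by diet in members and of Postn, for members (filled circles) and other fibroblasts (open squares, scaled in their own fit), red for high_fibre and blue for control_diet, each axis from 0. In each panel both high_fibre circles lie on 1 side of both control_diet circles, which was a condition for naming the 10 genes. Of all genes tested by diet in members, 34.1% had diets that did not overlap.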

How the data were processed

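The authors deposited whole-number UMI counts per gene and barcode for each library, made with Cell Ranger 3.1.0 on mm10, per the submitters' processing notes, from a 10x 3′ v2 kit, per the labels. The deposited tables hold 31053 genes, and no barcode has fewer than 500 UMIs. Aligner settings and strand handling are not given in the sources used here. Library totals were 56582577 and 69600492 UMIs (high_fibre 1 and 2) and 59317334 and 27577599 (control_diet 1 and 2).

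The 5 marker genes and the 11 gate genes (16 in all) were taken out before normalization and are given no test. The levels of the marker genes over all fibroblasts come from a TMM-scaled fit that kept them. Counts were summed per library and cell group, filtered with filterByExpr at a minimum count of 10, scaled by TMM and tested with edgeR 4.0.16 (quasi-likelihood, robust, R 4.3.3), with Benjamini-Hochberg adjustment over all genes tested and a threshold of 0.05. Standard errors of edgeR folds are those implied by the F statistic. The difference of diet effects used limma 3.58.1 on log2 CPM with a prior count of 2, and DESeq2 1.42.0 was an alternative. The edgeR fits were tested on simulated data. An exact permutation of 2 against 2 libraries could not reach the threshold and is not given. Levels of the marker genes, of marker lists and of single libraries within groups by leading gene are counts per 1e6 summed UMIs with no TMM scaling. Means over the 4 libraries in groups by leading gene are CPM after TMM scaling, so they are not on the same scale as the values of single libraries. Doublet scores were computed but removed nothing from the results as given; leaving out barcodes of high score is an alternative.

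Members and gene lists were chosen with earlier results of these data known. Groups by leading gene, the comparison over all fibroblasts, and the exclusions of shared barcodes and of cells with Schwann, mesothelial or globin UMIs were added after seeing the data. Named genes were, for members against others, the top 12 called in each direction by log2 fold with a mean of at least 20 CPM in the higher group and 1 sign in all 4 libraries, then diet calls whose groups did not overlap, and the members of each list with the largest fold (for the marker genes' pathways, any with at least 20 CPM). Genes named by leading marker, C4b and Wisp2 by diet in other fibroblasts, and Axin2 were chosen after their values were seen. Some genes of the lists were counted and are not reported by name here. Coordinates are from GENCODE M21 on GRCm38 and 1-based.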

Additional observations from a re-analysis of the deposited data

Results flagged for a closer look

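Postn is listed because its diet effect differed between members and other fibroblasts by a test of that difference: -0.66 on the log2 scale (limma adjusted p = 0.0137, lower in high_fibre members relative to their own library in both libraries). Over its 16 alternatives the difference ran from -1.14 to -0.35 and passed the threshold in 5.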

How the results depend on the processing

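The count of genes that differ between members and other fibroblasts was 2708. It was 1984 to 2509 with 1 library left out, 1610 in Xist-only cells, 1251 in Y-only cells, 1680 with DESeq2 and 1480 without a library term. Of these, 1488, 1183, 1640 and 1464 were also called with all cells and libraries. The diet count in members was 10. It was 2 to 138 with 1 library left out, 97 without a filter on low counts, 2 with members taken within 4 depth bins, 6 with equal marker weights, 0 by edgeR in Xist-only cells (344 at an unadjusted p under 0.05, as in the following brackets), 5 in Y-only cells, 2 without shared barcodes and 2 with DESeq2. Genes also called with all cells and libraries numbered 10 without a filter and 3 with equal marker weights. They numbered 1 within depth bins, 1 in Y-only cells, 1 with DESeq2 and 0 without shared barcodes. The diet count in other fibroblasts was 8. It was 18 to 155 with 1 library left out, 268 without a filter, 5 with the top 25% as members, 2 in Xist-only and 13 in Y-only cells, 0 without shared barcodes (397 unadjusted) and 45 with DESeq2.

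Genes of other fibroblasts also among the main 8 numbered 8 without a filter, 8 with DESeq2 and 5 with the top 25% as members. They numbered 3 in Y-only and 0 in Xist-only cells. With the repeat number as a replicate block, the diet counts were 35 in members and 39 in other fibroblasts, which included all 10 and all 8 genes. The numbers are not known to pair libraries, and the correlation of deviations of same-numbered libraries was 0.0217 over 9303 genes.

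The count for the difference of diet effects was 1. It was 1 to 579 with 1 library left out, the highest without control_diet 1 and the next, 118, without control_diet 2, 6 within depth bins and 3 without cells holding Schwann, mesothelial or globin UMIs. By limma it was 0 without a filter (747 unadjusted), 0 with the top 10% (445), 0 without barcodes of high doublet score (475), 0 in Y-only cells (391) and 0 without shared barcodes (94).

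Of 169 named genes that set members apart, 36 missed the threshold without some library. Cspg4 changed sign with the top 10% (-0.0373) and without cells of other types (-0.14), Kdr without cells of other types (0.067) and Timp1 within depth bins (0.061). The cause of these changes was not tested. With 2 libraries per diet and 86 members in control_diet 2, diet differences under a factor of 2 were often not recovered in the simulated data. Those data had a set spread between libraries, which may differ from the real one.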
